A study of Mus musculus with 16 samples.

Results

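The genes described here encode the ligands, receptors, inhibitors, signal transducers and targets of the FGF, Hedgehog, BMP, TGFβ, Wnt, Notch and PDGF pathways in mouse lung before and at birth. The list holds 60 genes, of which 57 were found on the array by a probe set annotated with 1 gene symbol, out of 8251 genes found in this way. Hhip, Wnt2 and Jag1 had no such probe set and were not analysed here. Of the 57 genes, 44 had 1 probe set, 10 had 2 and 3 had 3, and each gene was read from its probe set with the highest mean log2 signal. The arrays were Affymetrix Murine Genome U74Av2 arrays, 16 in all, each hybridised with RNA of whole lung. They fall into 4 groups: T1α(-/-) lungs at E18.5 (n = 5, replicates A to E), T1α(+/+) lungs at E18.5 (n = 5, I to M), T1α(-/-) lungs at term (n = 3, F to H) and T1α(+/+) lungs at term (n = 3, N to P). The E18.5 lungs were fetal, whereas the term lungs were taken just after normal delivery. The study reports that (-/-) newborns cannot inflate their lungs and die. Age and delivery cannot be told apart in the comparisons of times. The (-/-) mice carry a null mutation of T1α (podoplanin, Pdpn), a membrane protein of the alveolar type I cell, in every tissue, and came from crosses of heterozygous parents, as did their (+/+) controls. The labels name no treatment. No litter is given for any lung, so the p-values measure the spread between these lungs.

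The pathways are the main means by which lung epithelium and mesenchyme signal to each other. Fgf10 from the mesenchyme acts on Fgfr2 in the epithelium to drive branching, Shh from the epithelium acts on Ptch1 and Smo in the mesenchyme, and Bmp4 marks the growing epithelial tips. The Smad proteins carry BMP and TGFβ signals into the nucleus, where Smad6 and Smad7 act as inhibitors that the same signals induce, while Notch receptors and Wnt ligands act on cell fate in the airway, the vessels and the mesenchyme. Between E18.5 and birth the alveolar sacs widen, the mesenchyme thins and cell division slows.

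The array files differ in ways that touch the comparison of times. All arrays had the same overall scale, with a mean signal of 100.04 to 100.06 after the lowest and highest 2% of values were left out. The brightest signal was 12978.7 to 29523.9 on the 10 E18.5 arrays and 6159.4 to 10575.8 on the 6 term arrays. Probe sets with a mean signal over 2000 were lower at term by a median of 0.83 on the log2 scale in (+/+) and 0.73 in (-/-) lungs, whereas the median was between -0.1 and 0.11 in every signal range from 50 to 2000. No member had a mean signal over 2000. The ratio of GAPDH signal at the 3' end to that at the 5' end, a measure of RNA integrity, was 1.84 to 2.63 on term replicates G, N and O and 0.83 to 1.11 on F, H and P. Myh6, a heart muscle gene, exceeded a signal of 300 on replicates E, F, M and O. The 25th percentile of the signals was 29.8 on replicate I and 8.7 to 14.9 on the others. Xist and Eif2s3y, which mark females and males, were 44.9 to 80.0 and 4.7 to 4.8 on (+/+) E18.5 replicates L and M, against 6.7 to 10.2 and 43.9 to 54.2 on all 3 (+/+) term arrays. On (-/-) E18.5 replicates A, B and C they were 27.2 to 99.8 and 2.1 to 6.3. On (-/-) term replicate G they were 75.8 and 6.5, against 7.3 to 10.6 and 45.5 to 58.9 on F and H. T1α itself was 1.4 to 21.2 in (-/-) and 60.2 to 135.5 in (+/+) lungs at E18.5, with 8.6 to 30.0 against 39.7 to 214.9 at term, so the genotypes did not overlap at either time. The lung markers Sftpb and Sftpc had mean signals of 1623.3 or more in every group.

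Most members that passed the test between E18.5 and term rose. The transducer Smad4, the inhibitors Smad6 and Smad7, the ligands Tgfb1 and Jag2, the receptors Ptch1 (by 1 of its 2 probe sets) and Fgfr4 and the BMP target Id1 were higher at term in both genotypes, and the growth factor midkine (Mdk) was lower in both. In (+/+) lungs 11 of 35 members tested passed an adjusted p of 0.05, 8 of them higher and 3 lower at term. That is 31.4% of the members, beside 18.7% of all probe sets tested in that comparison, 10.7% higher and 8.08% lower. In (-/-) lungs 12 of 36 members passed, 10 higher and 2 lower. That is 33.3%, beside 26.9% of all probe sets, 13.8% higher and 13.1% lower. At an unadjusted p of 0.05, 14 members passed in each genotype, beside 34.5% of all probe sets in (+/+) and 40.7% in (-/-) lungs. The members' median log2 difference was 0.26 in (+/+) and 0.25 in (-/-) lungs, and that of all probe sets tested was -0.04 and -0.06. Among the members tested, signals of the times did not overlap for 11 in (+/+) lungs (24.5% of all probe sets tested) and for 14 in (-/-) lungs (30.7%). The 9 members that passed in both genotypes are 9 of the 11 in (+/+) lungs and 9 of the 12 in (-/-) lungs, and the 2 comparisons share no array. The share of all probe sets that passed in both genotypes was not taken, so this overlap cannot be called particular to the members.

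Differences were tested with limma on log2(signal + 16), which understates the change of dim genes, and the Benjamini-Hochberg adjustment ran over every probe set tested. A probe set was tested where the median of at least 1 group exceeded a signal of 53.3 in (+/+) or 51.0 in (-/-) lungs over time. Fgfr3, Tgfb1 and Jag2 in (+/+) lungs, and Fgfr4, Nog, Tgfb1, Jag2 and Notch4 in (-/-) lungs, entered the test only through the time at which they are high. Among members above that level at both times 8 of 27 passed in (+/+) lungs, beside 762 of 4755 such probe sets, and 7 of 27 in (-/-) lungs, beside 1179 of 4941. The 8 include Fgfr4, whose (+/+) median at E18.5 was 53.4, barely above the level of 53.3. In whole lung RNA, fewer cells of a type and less RNA per cell cannot be told apart. Each lung was hybridised once and no hybridisation batch is given, so time and the difference in brightness between E18.5 and term arrays cannot be told apart. With the E18.5 arrays limited to replicates I and M for (+/+) and D and E for (-/-), whose brightest signals were under 20000, 6 members passed in (+/+) lungs, where Fgfr3, Ptch1, Bmp4, Smad6 and Smad7 lost their call, and 9 in (-/-) lungs, where Ptch1, Nog, Id1 and Pdgfra did. Without replicates E, F, M and O, which carry the heart signal, the counts were 7 and 8, with Fgfr3, Ptch1, Smad6 and Smad7 lost in (+/+) and Nog, Smad6, Notch4 and Pdgfra in (-/-) lungs. With Xist as a covariate Tgfb1, Smad4 and Mdk were the 3 that passed in (+/+) lungs, and 11 passed in (-/-) lungs, all but Nog. Without (+/+) term replicate N, 3 members passed in (+/+) lungs, and without replicate F, 8 passed in (-/-) lungs.

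**Figure D1:**
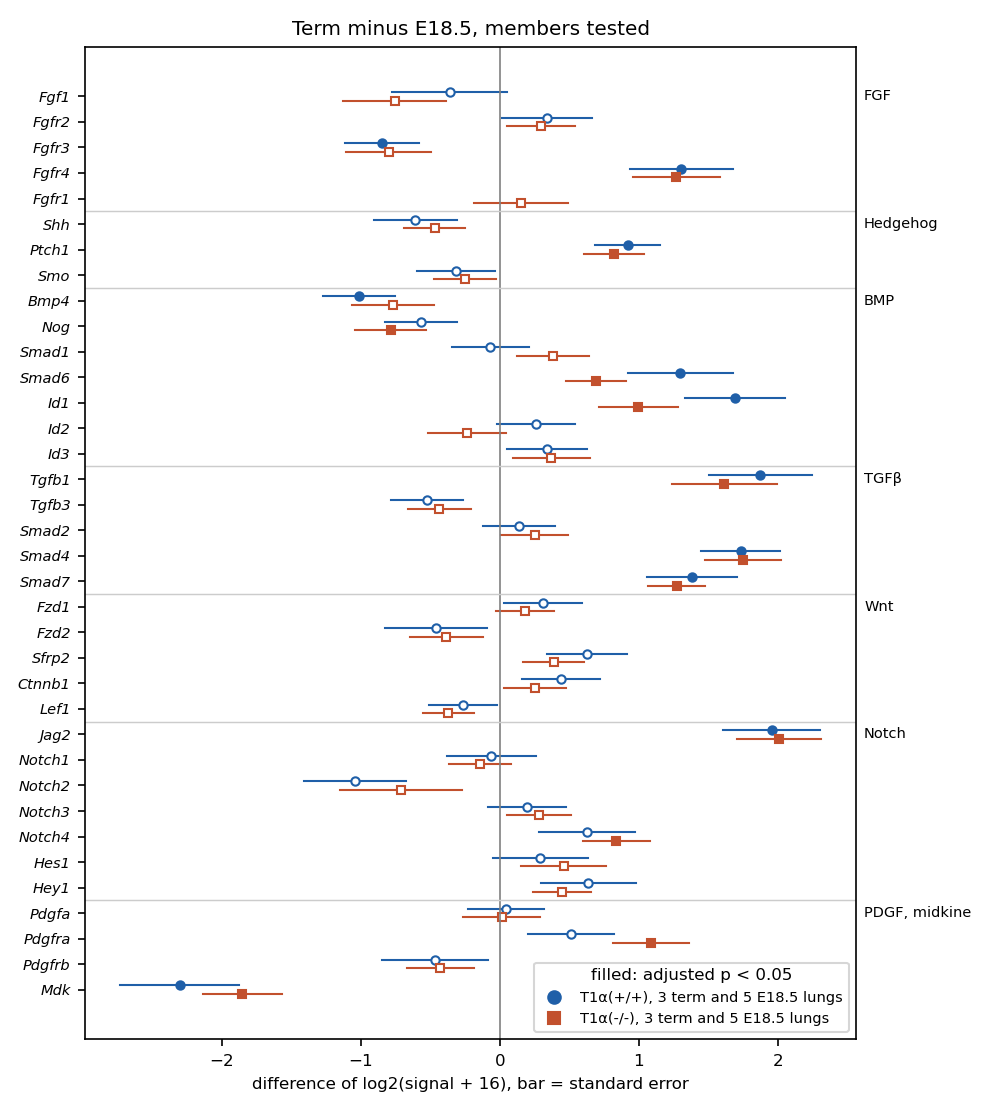
Difference between term and E18.5 on the log2(signal + 16) scale for each member tested, with T1α(+/+) lungs as circles, T1α(-/-) lungs as squares and bars for the standard error. Filled symbols passed an adjusted p of 0.05, and the symbols of both genotypes lie on the same side of 0 for all the members that passed in both.

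Of the FGF ligands, 1 of 4 could be tested over time. Fgf7 and Fgf10, mesenchymal ligands of Fgfr2, and Fgf18 stayed below the level for testing in every comparison, with Fgf10 at 1.9 to 18.1 over the 16 arrays. Fgf1, a ligand of all FGF receptors, was tested and had log2 differences over time of -0.36 ± 0.41 (SE) in (+/+) and -0.76 ± 0.37 in (-/-) lungs, with adjusted p of 0.56 and 0.145.

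Fgfr4, a receptor tied to late alveolar growth, rose. In (+/+) lungs its signal was 33.2, 10.5, 66.3, 80.0 and 53.4 at E18.5, against 124.4, 96.4 and 180.3 at term. The (-/-) lungs gave 21.0, 58.8, 90.0, 36.6 and 27.7 at E18.5, against 96.3, 145.2 and 137.3 at term. Every term array lay above every E18.5 array of its genotype, although (-/-) replicates C and F were close. The log2 difference was 1.30 ± 0.37 in (+/+) (adjusted p = 0.0238) and 1.27 ± 0.32 in (-/-) lungs (adjusted p = 0.0117), with ratios of the mean signals at term to E18.5 of 2.75 and 2.70. The (+/+) call was lost without term replicate N (adjusted p = 0.0974) or P (adjusted p = 0.0873). The 250 bases before the gene's start, at chr13:55152568-55152817 on the plus strand of GRCm38.p6 as RefSeq gives them, are shown as the first of 3 upstream sequences of members that rose at term in both genotypes.
Fgfr4: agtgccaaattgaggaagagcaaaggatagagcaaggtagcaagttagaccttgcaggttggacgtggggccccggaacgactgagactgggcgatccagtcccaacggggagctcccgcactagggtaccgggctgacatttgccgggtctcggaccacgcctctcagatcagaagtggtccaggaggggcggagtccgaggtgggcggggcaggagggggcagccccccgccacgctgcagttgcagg

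Fgfr3, a receptor that acts with Fgfr4 in alveolar formation, passed as lower at term in (+/+) lungs. It measured 77.0, 83.6, 59.9, 67.3 and 48.0 in (+/+) lungs at E18.5, against 31.5, 33.8 and 24.0 at term. The times did not overlap in (+/+) lungs, and the log2 difference was -0.85 ± 0.27 (adjusted p = 0.0367). Signals in (-/-) lungs were 39.1 to 113.7 at E18.5, against 21.9, 58.2 and 22.7 at term, with replicate G above the lowest E18.5 array, a log2 difference of -0.80 ± 0.30 and an adjusted p of 0.0666. The (+/+) call was lost with quantile normalization (adjusted p = 0.0782) and without any 1 of replicates J, L, N, O and P (adjusted p of 0.083, 0.0732, 0.118, 0.0807 and 0.0851). Its other probe set, 160919_r_at, was below the level for testing and had differences of the opposite sign, 0.72 in (+/+) and 0.70 in (-/-) lungs, with 1.2 to 12.4 at E18.5 and 12.8 to 31.2 at term. No direction for Fgfr3 that holds for both of its probe sets can be given. Fgfr2, the receptor of Fgf10, measured 507.7 to 1418.5 over the 16 arrays, and its log2 differences of 0.34 ± 0.33 and 0.29 ± 0.25 did not pass (adjusted p = 0.479 and 0.388). Another probe set of Fgfr2, 162171_f_at, did pass in both genotypes, at 1.02 ± 0.28 in (+/+) and 0.89 ± 0.23 in (-/-) lungs (adjusted p = 0.021 and 0.0151). The remaining one, 93091_s_at, had differences of the opposite sign that did not pass. They were -0.646 ± 0.316 in (+/+) and -0.291 ± 0.585 in (-/-) lungs (adjusted p = 0.16 and 0.739). Fgfr1, tested over time only in (-/-) lungs, differed by 0.15 ± 0.34 (adjusted p = 0.768).

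Of the Hedgehog pathway, the receptor and target gene Ptch1 rose by the probe set used, while the ligand did not pass the test. The other Ptch1 probe set had differences of the opposite sign. Ptch1 binds Shh, restrains Smo and is itself induced by the pathway. Its signal was 108.3, 130.7, 119.9, 106.9 and 98.3 in (+/+) lungs at E18.5, against 250.1, 192.6 and 241.2 at term. Among (-/-) lungs it was 99.2, 89.9, 108.5, 164.2 and 112.3 at E18.5, against 178.9, 208.7 and 252.2 at term. All term arrays lay above all E18.5 arrays, with (-/-) replicate D the nearest. On the log2 scale the differences were 0.92 ± 0.23 (adjusted p = 0.0133) and 0.82 ± 0.22 (adjusted p = 0.0151), and the mean signals differed 2.02-fold and 1.86-fold. The calls were lost without (+/+) replicate N (adjusted p = 0.0839) and without (-/-) replicate H (adjusted p = 0.0642), and with the E18.5 arrays limited to I and M (adjusted p = 0.0883) or D and E (adjusted p = 0.136).

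The other Ptch1 probe set, 104031_at, had differences of the opposite sign. It measured 72.0 to 132.9 in (+/+) lungs at E18.5, against 45.3, 65.6 and 54.7 at term, a log2 difference of -0.73 ± 0.26 (adjusted p = 0.0605), and in (-/-) lungs the difference was -0.33 ± 0.21 (adjusted p = 0.263). The rise of Ptch1 thus holds for 1 of its 2 probe sets. Shh measured 267.4, 324.7, 202.7, 415.4 and 241.6 in (+/+) lungs at E18.5, against 278.4, 152.0 and 135.0 at term. For (-/-) lungs the signals were 293.7, 294.7, 274.1, 276.1 and 206.5, and 232.3, 215.1 and 132.7. The times overlapped in both genotypes, with log2 differences of -0.61 ± 0.30 (adjusted p = 0.16) and -0.47 ± 0.22 (adjusted p = 0.13). Smo, the signal transducing receptor, differed by -0.32 ± 0.28 and -0.25 ± 0.22 (adjusted p = 0.452 and 0.425). Of the transcription factors of the pathway, Gli1 and Gli3 were below the level for testing in every comparison and Gli2 was tested only in the comparison of all 4 groups.

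**Figure D2:**
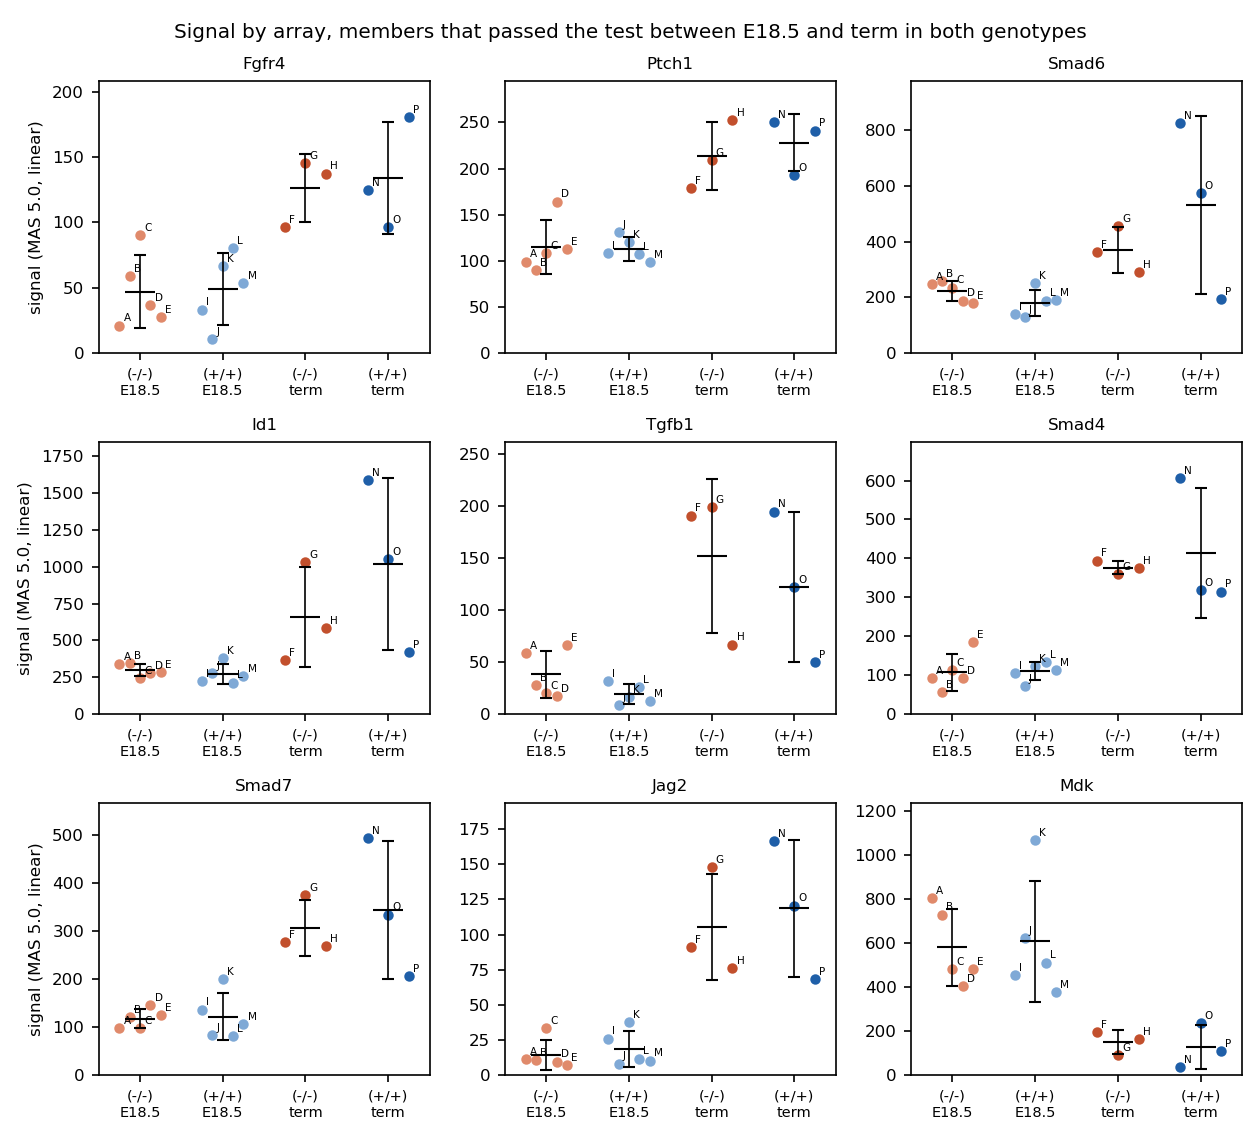
Signal on each of the 16 arrays (linear scale from 0, replicate letters beside the points, horizontal mark and bar for the mean and SD of 3 or 5 lungs) for the 9 members that passed the test between E18.5 and term in both genotypes. Smad6 overlapped between the times in T1α(+/+) lungs, where replicate P lay within the E18.5 range, and the other 8 members did not overlap in either genotype.

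Among the BMP genes the inhibitor Smad6 and the target Id1 rose at term in both genotypes, the antagonist noggin fell in (-/-) lungs, and the probe sets of the ligand Bmp4 were opposed. Id1, an inhibitor of basic helix-loop-helix factors and a direct BMP target, measured 224.7, 279.4, 379.5, 213.1 and 254.9 in (+/+) lungs at E18.5, against 1589.3, 1053.2 and 418.6 at term. The (-/-) lungs gave 339.2, 344.7, 246.5, 278.7 and 283.4 at E18.5, against 367.9, 1033.1 and 582.0 at term. The times did not overlap, although replicates F and P lay just above the E18.5 arrays. Differences on the log2 scale were 1.69 ± 0.36 (adjusted p = 0.00553) and 0.99 ± 0.28 (adjusted p = 0.0216). The calls were lost without (+/+) replicate N (adjusted p = 0.0561) and without (-/-) replicate C, G or H (adjusted p = 0.0501, 0.0995 and 0.0538), and the (-/-) difference was 0.62 without G. The related targets did not pass: Id2 differed by 0.26 ± 0.28 and -0.24 ± 0.28 (adjusted p = 0.541 and 0.551), and Id3 by 0.34 ± 0.29 and 0.37 ± 0.28 (adjusted p = 0.422 and 0.337).

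Smad6, an inhibitor that acts mainly on BMP receptors, measured 141.1, 130.0, 250.9, 188.5 and 189.0 in (+/+) lungs at E18.5, against 826.6, 576.0 and 192.8 at term. Signals in (-/-) lungs were 246.9, 258.1, 235.3, 188.7 and 178.7 at E18.5, against 364.1, 455.7 and 291.2 at term. The (-/-) arrays were separate by time, and of the (+/+) term arrays N and O were high and P was not. The log2 differences were 1.30 ± 0.38 (adjusted p = 0.0255) and 0.69 ± 0.21 (adjusted p = 0.0301). The (+/+) call was lost without replicate I, J, N or O (adjusted p = 0.0514, 0.0622, 0.195 and 0.105), and the (-/-) call without C, D, E, F or G (adjusted p = 0.0506, 0.0583, 0.0593, 0.0894 and 0.126). Its 250 upstream bases in RefSeq lie at chr9:64022060-64022309 on the minus strand, the last of them within the annotated extent of the gene.
Smad6: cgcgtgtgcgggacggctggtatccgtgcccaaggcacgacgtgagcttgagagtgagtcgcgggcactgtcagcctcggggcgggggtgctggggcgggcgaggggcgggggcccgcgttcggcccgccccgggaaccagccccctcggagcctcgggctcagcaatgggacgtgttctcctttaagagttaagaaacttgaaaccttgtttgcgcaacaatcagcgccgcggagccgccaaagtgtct

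The 3 term arrays with a high GAPDH ratio were also those with the highest signals of Id1 and Smad6. Id1 was 1033.1 to 1589.3 on G, N and O and 367.9 to 582.0 on F, H and P, and Smad6 was 455.7 to 826.6 and 192.8 to 364.1. Hey1, a target of Notch and BMP signals, was highest on N, G and O too, at 779.3, 438.5 and 422.5. Of the immediate early genes, Jun, Junb and Ier2 were also highest on G, N and O, whereas Fos, Fosb, Egr1 and Atf3 were not. With the GAPDH ratio as a covariate the (+/+) difference of Smad6 was 0.87 (adjusted p = 0.0708), the calls of Fgfr3 (adjusted p = 0.0591) and Fgfr4 (adjusted p = 0.0543) in (+/+) lungs were lost as well, and 8 members passed in (+/+) and 13 in (-/-) lungs. How far RNA integrity enters these differences was not tested further.

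**Figure D3:**
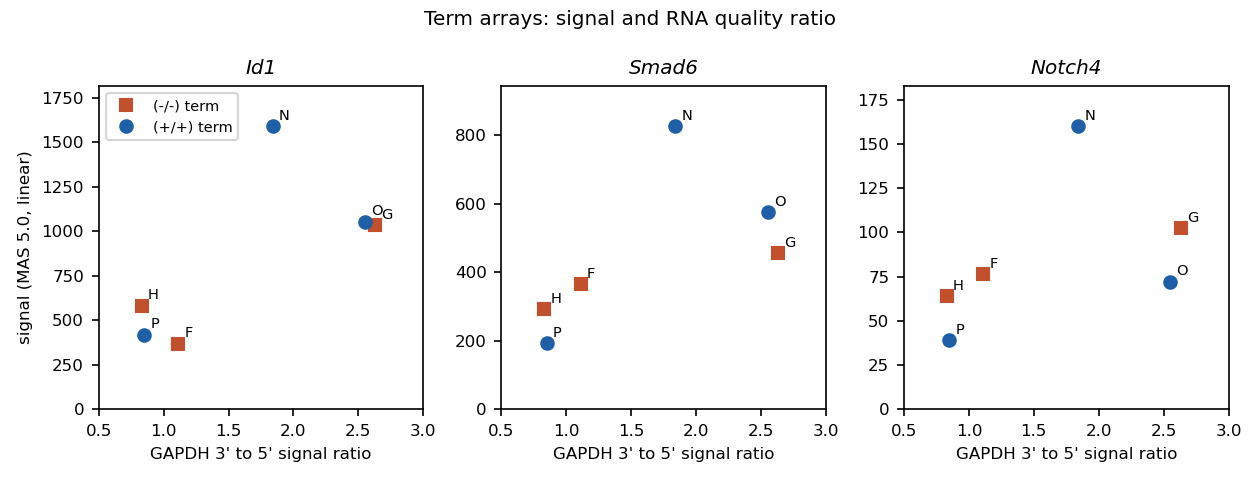
Signal (linear scale from 0) of Id1, Smad6 and Notch4 on the 6 term arrays against the ratio of GAPDH signal at the 3' and 5' ends. The arrays with ratios of 1.84 to 2.63 (G, N and O) have the highest Id1 and Smad6 signals of the 6, whereas for Notch4 array F (76.3) lies above O (72.2).

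Bmp4, the ligand of the distal epithelium, gave opposite answers from its 2 probe sets. The probe set used, 93455_s_at, measured 245.8, 226.5, 201.6, 187.3 and 136.1 in (+/+) lungs at E18.5, against 68.6, 90.0 and 112.2 at term, with no overlap and a log2 difference of -1.02 ± 0.26 (adjusted p = 0.0138). Among (-/-) lungs it was 212.8, 288.7, 147.7, 136.5 and 128.5 at E18.5, against 75.3, 158.1 and 71.7 at term, where replicate G lay within the E18.5 range and the difference of -0.77 ± 0.30 did not pass (adjusted p = 0.0691). The (+/+) call was lost without replicate N (adjusted p = 0.103) or O (adjusted p = 0.0503).

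The other, 93456_r_at, measured 68.0, 53.3, 78.2, 28.2 and 38.9 in (+/+) lungs at E18.5, against 224.9, 144.6 and 135.7 at term, and in (-/-) lungs 15.6, 56.8, 29.8, 53.5 and 52.9 at E18.5, against 163.9, 178.3 and 123.5 at term. Every term array was higher than every E18.5 array, with log2 differences of 1.43 ± 0.29 (adjusted p = 0.00421) and 1.62 ± 0.28 (adjusted p = 0.00215). On this array design the suffix s marks a probe set whose probes match more than 1 transcript, and r a probe set for which some probe selection rules were dropped. No direction for Bmp4 can be given from these arrays.

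**Figure D4:**
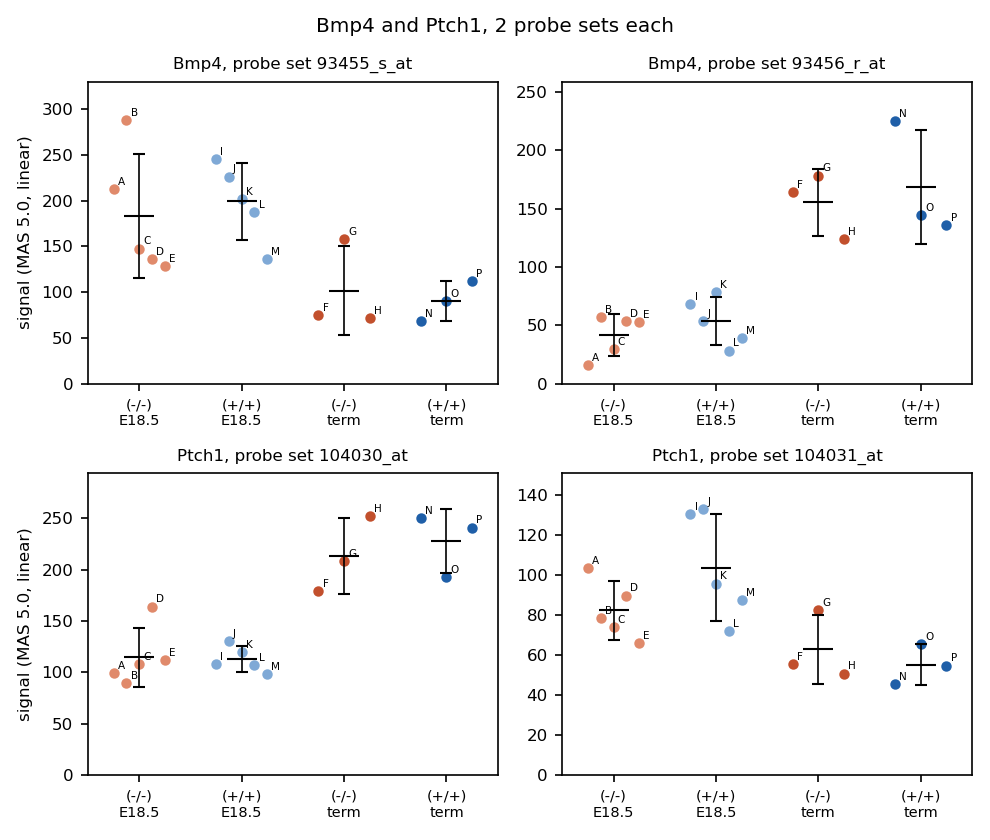
Signal on each array (linear scale from 0, horizontal mark and bar for mean and SD of 3 or 5 lungs) for both probe sets of Bmp4 and both of Ptch1. For each gene the left probe set, which was used, and the right one move in opposite directions between E18.5 and term in both genotypes.

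Noggin (Nog), which binds and blocks BMP ligands, measured 113.4, 172.8, 80.6, 95.5 and 69.1 in (-/-) lungs at E18.5, against 46.5, 48.8 and 62.0 at term. The times did not overlap and the log2 difference was -0.79 ± 0.25 (adjusted p = 0.0357). In (+/+) lungs it measured 64.8, 63.3, 81.6, 91.3 and 60.7, and 38.4, 54.8 and 37.5, again without overlap, and the difference of -0.57 ± 0.26 did not pass (adjusted p = 0.128). The difference between the 2 time effects, tested over all 16 arrays, was -0.22 ± 0.34 (adjusted p = 1 by limma). The (-/-) call was lost with quantile normalization (adjusted p = 0.0582), with the E18.5 arrays limited to D and E (adjusted p = 0.163) and without replicate A, D, F, G or H (adjusted p = 0.0699, 0.0502, 0.121, 0.0976 and 0.0584). Smad1, which transmits BMP signals, differed by -0.07 ± 0.27 and 0.38 ± 0.26 (adjusted p = 0.888 and 0.283). Bmp2, Bmp7, the receptors Bmpr1a and Bmpr2 and Smad5 were below the level for testing.

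Of the TGFβ genes, 3 of 5 tested rose in each genotype, the ligand Tgfb1, the shared transducer Smad4 and the inhibitor Smad7. Of all probe sets tested, 10.7% passed as higher in (+/+) and 13.8% in (-/-) lungs, and 5 genes are too few to set a pathway apart. Smad4 enters the nucleus with the receptor activated Smads of both the BMP and the TGFβ branch. It measured 105.8, 72.6, 122.3, 134.5 and 111.9 in (+/+) lungs at E18.5, against 606.7, 319.3 and 314.4 at term. For (-/-) lungs the signals were 92.3, 55.5, 113.6, 92.4 and 183.8 at E18.5, against 394.2, 360.2 and 374.3 at term. The lowest term array, at 314.4, stood well above the highest E18.5 array, at 183.8. On the log2 scale the differences were 1.73 ± 0.28 (adjusted p = 0.00112) and 1.75 ± 0.28 (adjusted p = 0.00123), with mean signals 3.78-fold and 3.5-fold higher at term. Both calls held in each of the 8 fits of their genotype that left out 1 array, with log2 differences of 1.43 to 1.89 in (+/+) and 1.57 to 1.94 in (-/-) lungs.

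Smad7, an inhibitor of the TGFβ receptors that TGFβ induces, measured 136.4, 83.0, 199.1, 80.9 and 105.7 in (+/+) lungs at E18.5, against 493.0, 334.0 and 206.3 at term. The (-/-) lungs gave 97.2, 120.9, 98.0, 146.2 and 125.3 at E18.5, against 276.5, 374.1 and 269.1 at term. The (-/-) times were far apart, while (+/+) replicates K and P were close. Differences on the log2 scale were 1.38 ± 0.32 (adjusted p = 0.0089) and 1.27 ± 0.20 (adjusted p = 0.00135). The (+/+) call was lost without replicate N (adjusted p = 0.0854), and the (-/-) call held without each array in turn.

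Tgfb1, a ligand made by many cell types of the lung, had group medians below the level for testing at E18.5 and above it at term. It measured 31.7, 8.2, 16.6, 26.2 and 12.1 in (+/+) lungs at E18.5, against 194.5, 122.1 and 49.9 at term. Signals in (-/-) lungs were 58.8, 28.0, 20.3, 17.0 and 66.3 at E18.5, against 190.6, 199.1 and 66.7 at term. The times did not overlap, but replicate H, at 66.7, barely exceeded E, at 66.3. The log2 differences were 1.87 ± 0.37 (adjusted p = 0.00365) and 1.61 ± 0.38 (adjusted p = 0.00898). The (+/+) call was lost without replicate N (adjusted p = 0.0552). The 250 bases upstream of the gene's start lie at chr7:25686752-25687001 on the plus strand.
Tgfb1: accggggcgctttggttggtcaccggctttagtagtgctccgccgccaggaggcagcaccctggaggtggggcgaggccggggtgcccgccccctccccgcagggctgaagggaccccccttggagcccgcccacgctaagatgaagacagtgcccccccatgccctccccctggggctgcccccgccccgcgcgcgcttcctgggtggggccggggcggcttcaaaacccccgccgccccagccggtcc

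The remaining TGFβ genes did not pass. Tgfb3, a ligand of the fetal epithelium, differed by -0.53 ± 0.26 and -0.44 ± 0.23 (adjusted p = 0.164 and 0.166), and Smad2, a transducer, by 0.14 ± 0.26 and 0.25 ± 0.24 (adjusted p = 0.736 and 0.457). Tgfb2, Tgfbr2 and Smad3 were below the level for testing.

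No Wnt member passed over time in either genotype, of 5 tested in each, beside 18.7% of all probe sets in (+/+) and 26.9% in (-/-) lungs. With 5 genes this count does not set the pathway apart. The secreted Wnt inhibitor Sfrp2 was nearest in (+/+) lungs, at 101.5, 54.5, 103.8, 64.8 and 62.4 at E18.5, against 151.2, 157.4 and 80.1 at term. The times overlapped through replicate P, and the log2 difference was 0.63 ± 0.29 (adjusted p = 0.131). In (-/-) lungs Sfrp2 was 87.4 to 125.3 at E18.5 and 95.2 to 182.4 at term, a difference of 0.39 ± 0.22 (adjusted p = 0.199). Lef1, a nuclear partner of β-catenin, measured 264.9, 239.9, 290.8, 268.4 and 216.9 in (-/-) lungs at E18.5, against 192.9, 211.6 and 177.7 at term. These did not overlap, yet the difference of -0.37 ± 0.19 did not pass (adjusted p = 0.152), and in (+/+) lungs it was -0.27 ± 0.25 with overlap (adjusted p = 0.468). β-catenin (Ctnnb1) measured 742.9 to 1690.0 over the 16 arrays, and differed by 0.44 ± 0.28 and 0.25 ± 0.22 (adjusted p = 0.286 and 0.419). The receptors Fzd1 and Fzd2 differed by 0.31 ± 0.28 and -0.46 ± 0.37 in (+/+) lungs and by 0.18 ± 0.21 and -0.39 ± 0.26 in (-/-) lungs. The ligands Wnt5a, Wnt7b and Wnt11, the receptor Fzd7 and the inhibitor Sfrp1 were below the level for testing.

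Of the Notch genes, the ligand Jag2 rose in both genotypes. It measured 26.0, 8.1, 37.8, 11.7 and 10.3 in (+/+) lungs at E18.5, against 166.5, 120.7 and 68.6 at term. Among (-/-) lungs it was 11.5, 10.8, 33.3, 9.6 and 6.8 at E18.5, against 91.4, 148.1 and 76.2 at term. All E18.5 signals lay below the level for testing and all term signals above it. On the log2 scale the differences were 1.95 ± 0.35 (adjusted p = 0.002) and 2.01 ± 0.30 (adjusted p = 0.00101), and both calls held without each array in turn. The mean signals at term were 6.32-fold and 7.31-fold those at E18.5. Jag2 has 1 probe set on the array.

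Notch4, a receptor of the endothelium, passed in (-/-) lungs. It measured 38.5, 44.7, 52.5, 22.8 and 34.1 at E18.5, against 76.3, 102.5 and 63.8 at term, without overlap, and the log2 difference was 0.84 ± 0.24 (adjusted p = 0.0227). In (+/+) lungs it measured 74, 41.1, 48.5, 33.8 and 37.7, and 160.2, 72.2 and 39.1, with overlap and a difference of 0.63 ± 0.35 that did not pass (adjusted p = 0.215). The difference between the time effects was 0.21 ± 0.44 (adjusted p = 1 by limma). The (-/-) call was lost without replicate F (adjusted p = 0.071) or G (adjusted p = 0.108). The other Notch4 probe set, 93928_f_at, was below the level for testing, at 2.6 to 32.7. Its differences had the opposite sign, -0.10 in (-/-) and -0.38 in (+/+) lungs. Of 6 endothelial marker genes on the array 1, Cdh5, was higher at term in each genotype, by 1.05 ± 0.29 in (+/+) and 0.73 ± 0.19 in (-/-) lungs (adjusted p = 0.0223 and 0.0166). The summed signal of the 6 was 774.6 to 1312.9 in (+/+) and 1134.6 to 1408.7 in (-/-) lungs at E18.5, against 1428.2 to 1892.2 and 1473.8 to 2093.4 at term. Cdh5 alone was 266.9 to 534.6 and 473.9 to 572.9 at E18.5, against 686.3 to 992.7 and 756.7 to 1023.6 at term. Each of the other endothelial markers overlapped between the times in both genotypes. Pecam1 was 30.4 to 134.3 in (+/+) lungs at E18.5, against 10.6 to 52.4 at term. The part of endothelial content in the Notch4 difference was not tested.

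The other Notch genes did not pass. Notch2 had a log2 difference of -1.04 ± 0.37 in (+/+) lungs (adjusted p = 0.0581) and -0.71 ± 0.44 in (-/-) lungs (adjusted p = 0.24), while its other probe set, 104188_at, was at 0.19 ± 0.29 and 0.98 ± 0.25 (adjusted p = 0.669 and 0.0143). Notch1, at -0.06 ± 0.32 and -0.14 ± 0.22, and Notch3, found on vascular smooth muscle, at 0.20 ± 0.28 and 0.28 ± 0.23, were nearer 0. The Notch targets Hes1 and Hey1 were at 0.29 ± 0.34 and 0.63 ± 0.34 in (+/+) lungs and at 0.46 ± 0.30 and 0.45 ± 0.21 in (-/-) lungs, with adjusted p of 0.571, 0.202, 0.272 and 0.125. Dll1, a ligand, was not tested over time.

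Midkine (Mdk), a heparin binding growth factor of fetal epithelium and mesenchyme, had the largest fall. It measured 454.9, 621.6, 1068.3, 510.1 and 375.5 in (+/+) lungs at E18.5, against 35.9, 236.7 and 109.3 at term. For (-/-) lungs the signals were 804.0, 728.4, 481.9, 403.6 and 480.6 at E18.5, against 195.7, 90.3 and 164.5 at term. No term array reached the lowest E18.5 array of either genotype. Differences on the log2 scale were -2.30 ± 0.43 (adjusted p = 0.00239) and -1.85 ± 0.29 (adjusted p = 0.00109), with mean signals at term of 0.21 and 0.26 of those at E18.5. Both calls held without each array in turn, with the (+/+) difference at -2.85 to -1.71 and the (-/-) difference at -2.06 to -1.56. Its relative Ptn gave signals of 0.5 to 11.2 and was not tested.

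Pdgfra, the receptor carried by the mesenchymal precursors of alveolar myofibroblasts, passed in (-/-) lungs, at 312.0, 226.1, 433.0, 437.9 and 262.8 at E18.5, against 906.3, 800.6 and 481.9 at term. The times did not overlap, and the log2 difference was 1.09 ± 0.28 (adjusted p = 0.013). In (+/+) lungs it measured 233.6, 305.0, 514.9, 460.9 and 291.7, and 674.0, 357.0 and 517.8, with overlap and a difference of 0.51 ± 0.31 that did not pass (adjusted p = 0.258). The difference between the time effects was 0.58 ± 0.43 (adjusted p = 1 by limma). The (-/-) call was lost without replicate F (adjusted p = 0.0701), and the probe set 160332_at of the same gene was at -0.41 ± 0.26 (adjusted p = 0.257). The ligand Pdgfa differed by 0.04 ± 0.28 and 0.01 ± 0.28, and the pericyte receptor Pdgfrb by -0.47 ± 0.38 and -0.43 ± 0.24 (adjusted p = 0.405 and 0.195).

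No member above the level for testing passed the test of genotype at either time. At E18.5, 0 of 31 members passed an adjusted p of 0.05 by limma, beside 0.0343% of all probe sets, and 0 passed an unadjusted p of 0.05, beside 5.30%. None of the 31 separated the genotypes without overlap, beside 1.13%. The log2 differences, (-/-) minus (+/+), ran from -0.29 to 0.42 with a median of 0.02. At term 0 of 34 members passed the adjusted p, as did 0% of all probe sets, and 0 passed the unadjusted p, beside 0.686%. None of the 34 separated the genotypes at term, beside 3.29%. These differences ran from -0.54 to 0.48 with a median of 0.04. The methods' test on the signals also called 0 members at either time once adjusted as here. The study ran that test without adjusting for multiple comparisons, on probe sets it detected. Its lists include Fgf7 as lower in (-/-) lungs at term, and the Notch2 probe set 104188_at at E18.5. Here Fgf7 was below the level for testing, and 104188_at was not the probe set used for Notch2. The study also cites earlier work in which Fgf7 expression was normal at term.

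The lowest unadjusted p at E18.5 was that of Nog. Its signals of 69.1 to 172.8 in (-/-) and 60.7 to 91.3 in (+/+) lungs overlapped, and the log2 difference was 0.42 ± 0.23 with a 95% interval of -0.06 to 0.90 (adjusted p = 0.864 by limma). An exact permutation test of the signals of Nog, 2-sided, gave p = 0.0794, where the smallest p that 5 against 5 allows is 0.00794. Sfrp2 followed at 0.33 ± 0.21 with an interval of -0.11 to 0.77, and Smad6 at 0.30 ± 0.20 with an interval of -0.13 to 0.73. At term the ends of the range were Id1, at -0.54 ± 0.49 with an interval of -1.65 to 0.56, and Pdgfra, at 0.48 ± 0.33 with an interval of -0.24 to 1.21. Shh, Ptch1 and Smo, the 3 Hedgehog genes tested at both times, had differences of -0.07, 0.00 and 0.12 at E18.5 and of 0.06, -0.09 and 0.19 at term.

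Members below the level for testing, 26 at E18.5 and 23 at term, hold further genotype values. Those named here were picked after they were seen. Wnt5a, a ligand of the distal mesenchyme, measured 4.5, 7.2, 2.9, 12.8 and 3.3 at E18.5 in (-/-) lungs, against 22.1, 9.9, 30.8, 12.8 and 13.4 in (+/+) lungs. The (-/-) signals were mostly the lower, with overlap through replicate D, and an exact permutation test, 2-sided, gave p = 0.0238 with a ratio of the means of 0.34. Fgf7, the mesenchymal ligand, measured 14.3, 13.9 and 9.6 in (-/-) lungs at term and 25.7, 21.1 and 19.5 in (+/+) lungs. The genotypes did not overlap, the ratio of the means was 0.57, and the exact permutation p of 0.1 is the smallest that 3 against 3 allows. Wnt11 did not overlap at term either, at 31.1 to 36.1 in (-/-) and 15.4 to 28.9 in (+/+) lungs. The share of all probe sets below the level that separated the genotypes was not taken, so no change is read from these values. With no filter on low signals, Wnt5a at E18.5 was at -0.59 ± 0.23 and Fgf7 at term at -0.41 ± 0.17, both past an unadjusted p of 0.05 and short of the adjusted one (adjusted p = 0.988 and 1 by limma), and Wnt11 at term was at 0.34 ± 0.23 (adjusted p = 1).

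The 95% intervals bound what these arrays could have missed. The interval lay within 1 log2 unit of 0, a change of the signal by less than a doubling or halving on this scale, for 30 of 31 members at E18.5, all but Notch2, and for 25 of 34 at term. The width of the interval to either side was 0.38 to 0.83 at E18.5 with a median of 0.50, and 0.50 to 1.11 at term with a median of 0.66. Differences within these intervals could have been missed with these numbers of lungs. At term the adjusted test did not call T1α itself either, although its mean signal in (-/-) lungs was 0.14 of that in (+/+) lungs. A count of 0 members at term thus does not show that the members were unchanged. Another probe set of Notch2, 104188_at, was at -0.74 ± 0.25 at E18.5 and passed an unadjusted p of 0.05 there, but not the adjusted one (adjusted p = 0.856 by limma). It is named here because it was the only such probe set among the members' other probe sets tested at that time.

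**Figure D5:**
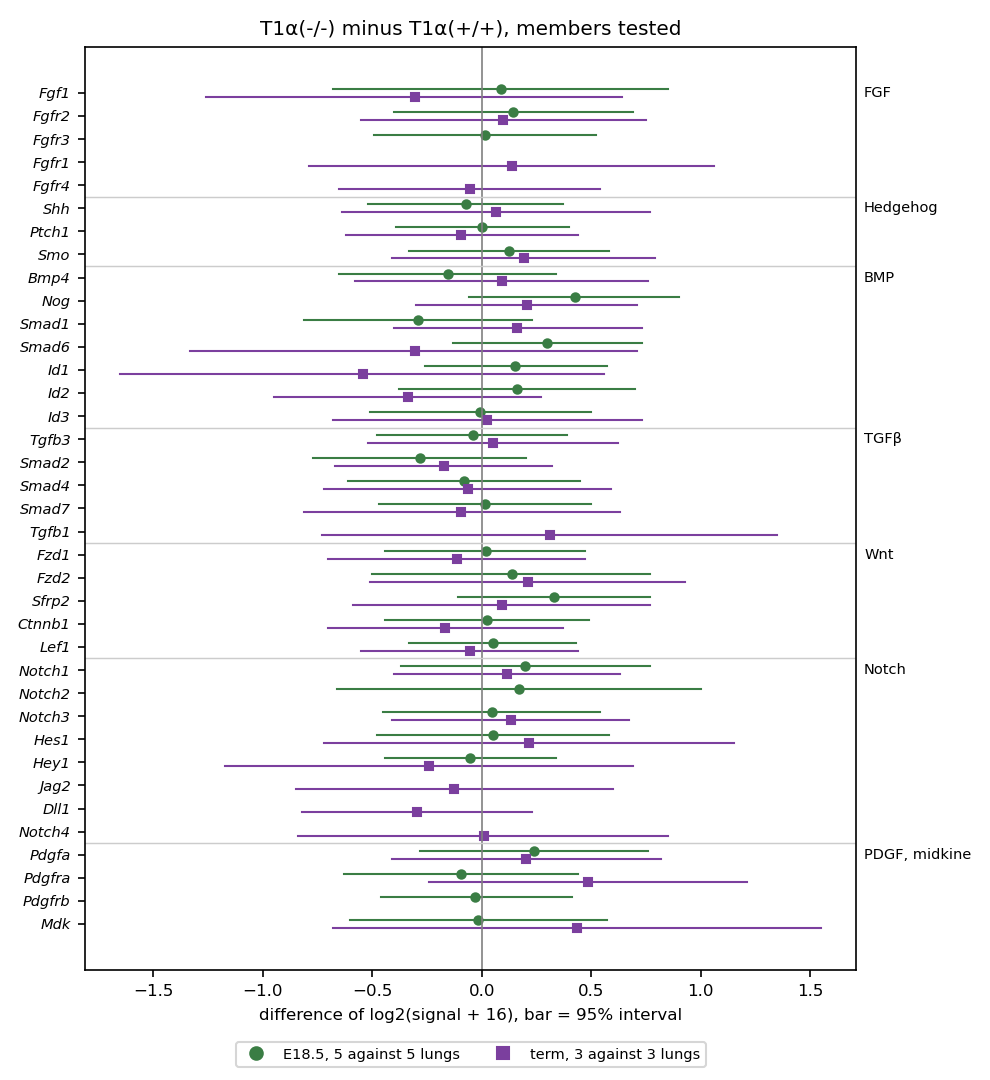
Difference between T1α(-/-) and T1α(+/+) lungs on the log2(signal + 16) scale for each member tested, at E18.5 (circles) and at term (squares), with bars for the 95% interval. All intervals include 0, and those at term, from 3 lungs against 3, are wider.

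The change of the genotype difference from E18.5 to term, an interaction over all 16 arrays, passed for 0 of 37 members after adjustment, as for 0% of all probe sets, and for 0 at an unadjusted p of 0.05, beside 1.48%. Its lowest p among the members was that of Id1, at -0.70 ± 0.49 (adjusted p = 1 by limma). Among the 14 members that passed over time in at least 1 genotype, no difference between the time effects of the genotypes passed, including Fgfr3 and Bmp4, which passed in (+/+) lungs, and Nog, Notch4 and Pdgfra, which passed in (-/-) lungs.

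Other genes of the same pathways were taken from a list of 107 genes, of which 87 were on the array. Over time 8 of 49 tested passed in (+/+) lungs, 4 in each direction, which is 16.3% beside 18.7% of all probe sets. In (-/-) lungs 15 of 52 passed, 8 higher and 7 lower, which is 28.8% beside 26.9%. Vegfa, the vascular growth factor, was higher at term by 1.81 ± 0.37 and 1.63 ± 0.25 (adjusted p = 0.00399 and 0.00109). Dusp6, a phosphatase that FGF signals induce, was higher by 1.44 ± 0.25 and 1.04 ± 0.24 (adjusted p = 0.00176 and 0.00851), and Fzd4, a Wnt and norrin receptor, was lower, at -1.07 ± 0.27 and -0.84 ± 0.20 (adjusted p = 0.0123 and 0.0106). Tgfbi, a matrix protein that TGFβ induces, was at -1.04 ± 0.25 in (+/+) lungs (adjusted p = 0.00966), and Inhba, an activin subunit, at -1.35 ± 0.32 in (-/-) lungs (adjusted p = 0.00987). Between the genotypes 0 of 50 passed at E18.5 and 0 of 46 at term, with 4 and 0 at an unadjusted p of 0.05 by limma.

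Markers of cell types and states also differed between the times, and their part in the members' differences was not tested. The immediate early genes, 7 of 7 on the array, were higher at term for 7 in (+/+) and for 5 in (-/-) lungs. Their summed signal was 558.3 to 864.6 and 661.7 to 965.7 at E18.5, against 5191.2 to 8454.1 and 2210.1 to 5730.5 at term, in the order (+/+) and (-/-). Of 5 proliferation genes 3 were lower at term in (+/+) and 1 in (-/-) lungs, with summed signals of 715.5 to 1365.2 and 582.1 to 818.0 at E18.5, against 434.7 to 500.5 and 399.2 to 517.2 at term. Both type II cell genes on the array, Sftpb and Sftpc, were lower at term in both genotypes, with summed signals of 14358.7 to 26884.9 and 17500.1 to 30149.7 at E18.5, against 6581.6 to 8139.6 and 7212.6 to 9865.3 at term. Their mean signals over both times exceeded 2000. In that range 40.5% of all probe sets passed as lower at term in (+/+) and 50.5% in (-/-) lungs. Of the 5 fibroblast and mesenchyme genes 1 was lower in each genotype, with summed signals of 2520.0 to 4439.8 and 3259.8 to 4599.7 at E18.5, against 2163.5 to 3214.4 and 2001.2 to 3353.9 at term. None of the 4 macrophage genes passed over time.

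In all, 19 of the 57 members were below the level for testing in every comparison, with group medians of 0.8 to 46.9, and 38 were tested in at least 1. The 19 include the mesenchymal ligands Fgf7, Fgf10 and Wnt5a, the tip ligand Wnt7b and the Hedgehog target Gli1, which the filter on low signals left out of the tests. Gli1 measured 16.5 to 37.9 at term and 20.1 to 112.0 at E18.5, the highest on replicate I. Over time, signals of Fgf10, Bmpr2 and Tgfb2 did not overlap in (+/+) lungs, with ratios of the means at term to E18.5 of 0.29, 0.66 and 0.56. Those of Fgf7, Gli1 and Smad5 did not overlap in (-/-) lungs, with ratios of 0.51, 0.51 and 0.46. These signals are low: Fgf10 in (+/+) lungs was 3.0 to 18.1 at E18.5, the highest on replicate I, against 1.9 to 2.4 at term. The share of all probe sets below the level that did not overlap was not taken, so no change is read from these values.

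RefSeq upstream windows of 250 bases were held for 37 of the 57 members, 47 windows in all. They were searched on both strands for GGCGCC (a site of Smad1 and Smad5), GTCTAGAC (the palindrome of Smad3 and Smad4), TGGGAA (the core of the RBPJ site, through which Notch acts) and GACCACCCA (the Gli site). GGCGCC was found in 12 of the 47 windows (25.5%) and in 9.59% of all 32851 windows. The median G and C content of the windows was 66.0% for the members and 52.4% for all. Of the 9 members that passed over time and have a window, Fgfr3 and Ptch1 held it, and the sequences of Fgfr4, Smad6 and Tgfb1 shown above held none of the 4 motifs, so no letter in them is in capitals. TGGGAA was found in 9 of the 47 windows (19.1%, against 21.6% of all) and GTCTAGAC and GACCACCCA in none (0.17% and 0.23% of all).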

How the data were processed

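Total RNA of whole lung was labeled and hybridised to 16 U74Av2 arrays, with 1 lung on each. The deposited values are signal intensities that the authors made with Microarray Suite 5.0 from the matched and mismatched probes of each probe set, with every array scaled alike. They run from 0 to 29523.9 on a linear scale over 12488 probe sets. Probe sets were named from the platform annotation, which gives 1 symbol for 10833 of them and several for 396, and 66 are controls. The authors' detection p-values were not used here.

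Arrays were assigned to groups from their labels. Intensities were used as log2(signal + 16). A probe set was tested where the median of at least 1 group exceeded the signal that 45% of the values in the fit exceed (54.2 at E18.5, 48.6 at term, 52.1 over the 16 arrays, and between the times 53.3 in (+/+) and 51.0 in (-/-) lungs). The tests then held 5831, 5834, 6409, 6100 and 6147 probe sets. The tests, all 2-sided, used limma 3.58.1 (R 4.3.3), a linear model followed by empirical Bayes moderation with an intensity trend, with Benjamini-Hochberg adjustment over those probe sets. The 5 comparisons were genotype at each time, their difference, and time within each genotype. Intervals are 95% intervals of the moderated fit. The fits were tested on simulated signals. Python 3.11.15 with pandas 2.3.3, numpy 2.4.6, scipy 1.17.1 and matplotlib 3.10.9 was used for the rest. The number of arrays limits the precision. No 2 arrays shared more than 1.2% of their signals.

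Members named with per-array values are those that passed a comparison, plus Shh, Sfrp2 and Lef1 for their pathways. The members, the list of other pathway genes and the marker lists were chosen with earlier results of these data known. Alternatives were quantile normalization, median centering, a floor of 1 without pseudocount, no filter, a 64 pseudocount, a filter at 25%, no intensity trend, array weights, the methods' t-test on signals, all arrays in 1 fit, a covariate (Xist, or the ratio of GAPDH probe sets), the probe set with the second highest mean, and leaving out each array. E18.5 arrays limited to D, E, I and M, and the removal of E, F, M and O, were chosen after seeing the data. Upstream sequences come from RefSeq windows on GRCm38.p6, with the build of the array design not given in the sources used here.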

Additional observations from a re-analysis of the deposited data

Results flagged for a closer look

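In 8 of the 114 groups of 5 E18.5 arrays examined over the members, 1 array stood apart from the other 4 by more than 0.71 of the group's range, a gap that chance gives in about 1 of 20 groups. Shh was 206.5 on (-/-) replicate E and 274.1 to 294.7 on the others. Hey1 was also lowest on E, at 200.6, with the others at 254.8 to 269.7. Id3 was 610.7 on (-/-) replicate A and 300.3 to 366.6 on the others. Jag2 was 33.3 on (-/-) replicate C and 6.8 to 11.5 on the others, still below every term array. Wnt11 was 82.8 on (-/-) replicate B and 9.5 to 18.5 on the others, and was not tested. In (+/+) lungs Smo was 85.4 on replicate I and 53.3 to 58.2 on the others, Notch1 was 77.3 on J and 197.7 to 270.9 on the others, and Ptn was 11.2 on K and 0.5 to 2.0 on the others.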

How the results depend on the processing

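No member passed a comparison of genotypes, or the difference between them, after adjustment under any alternative run. At an unadjusted p of 0.05 the count of members between genotypes at E18.5 was 1 with no filter (Wnt5a), array weights (Sfrp2), the GAPDH ratio (Nog) or the second probe set (Notch2), and 0 to 1 without single arrays. At term it was 1 with no filter (Fgf7) or array weights (Id1) and 0 to 2 without single arrays. For the difference of the genotype effects it was 2 with array weights, 1 with the second probe set and 0 to 2 without single arrays. Of all probe sets between genotypes at E18.5, 2 passed, 1 with a floor of 1 or the 25% filter, 0 with the methods' t-test or without E, F, M and O, and 0 to 3 without single arrays.

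Over time in (+/+) lungs, 11 members passed, 1 with the methods' t-test, 3 with Xist as a covariate, 6 with D, E, I and M only, 7 without E, F, M and O, and 3 to 12 without single arrays, with 3 without N. At an unadjusted p there were 14, and 8 with the 25% filter. Of all probe sets 1143 passed, 1944 with array weights, 355 with the methods' t-test, 182 with Xist, 303 with D, E, I and M only, 489 without E, F, M and O, and 335 to 1269 without single arrays, with 335 without N and 585 without O. In (-/-) lungs 12 members passed, 7 with the methods' t-test, and 14 at an unadjusted p, 23 with no filter. Of all probe sets 1654 passed, 1032 with the methods' t-test, 988 with D, E, I and M only, 772 without E, F, M and O, and 893 to 1770 without single arrays, with 893 without F. With the second probe set the sign reversed for Ptch1 (-0.73 in (+/+) and -0.33 in (-/-) lungs), Bmp4 (1.43 in (+/+)) and Pdgfra (-0.41 in (-/-)). The cause was not tested in any of these. Fgfr4, Smad4, Smad7, Jag2 and Mdk in (-/-) lungs kept their call in all alternatives that gave them a value. No paired analysis was possible because the replicate letters are unique to each array and pair no samples. Calls over time were also lost with no filter (Fgfr3 and Fgfr4 in (+/+), Nog and Notch4 in (-/-) lungs) and with all arrays in 1 fit (Smad6 and Notch4 in (-/-) lungs). The settings not named here left each count within 1.5 times.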
